A study of Homo sapiens with 6 samples.

Results

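Genes that the transcription factor p53 is known to activate were followed in tumours grown in mice from HT-29, an established human colon cancer line known to be p53-mutant. The set was 9 genes given by name, namely CDKN1A, MDM2, GDF15, TIGAR, SESN1, BBC3, GADD45A, BTG2 and TP53I3. The array annotation named 8 of them, on 19 of 54675 probe sets, and BTG2 was not analysed here. A probe set is the group of short probes that reports 1 transcript on the array. MDM2 had 10 probe sets, GDF15 had 3 and each of the other 6 genes had 1. Levels are given on the log2 scale, and a gene was called detected where the mean of at least 1 pool reached 5, a level chosen for this work. By that rule 7 of the 9 genes were detected, each through 1 probe set, of 19775 genes on the array. The exceptions were BBC3, at up to 4.79, and BTG2.

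The cells were placed in the femoral region on each side of Balb/c (nu/nu) mice of 6 to 8 weeks, which are immunodeficient because they lack a thymus but keep other host cells. On day 18 the tumour on 1 side of the treated animals was heated for 30 min by an electromagnetic field, a method called modulated electro-hyperthermia, and tissue was taken 4 h later. The 3 groups were tumours of control animals, the heated tumours, and the unheated tumours that the treated animals carried on the opposite side, so that every group was the same cell line in the same host. RNA of each group was pooled and run on 2 arrays, which the labels call technical replicates, so each group is 1 sample. No test between conditions was possible, and the error given is the range or spread over technical arrays. The number of animals in a pool is not given in the sources used here.

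In cells with intact p53, stress stabilises the protein, which binds paired decamers of DNA near its targets and raises their transcription. The products stop the cell cycle (CDKN1A, GADD45A, BTG2), promote death (BBC3), adjust metabolism and oxidant handling (TIGAR, SESN1, TP53I3), signal outside the cell (GDF15), or return to p53 and mark it for degradation (MDM2). Mutant p53 is usually impaired in this binding, while most of these genes can also be raised by other stress pathways. The arrays report transcript levels and not the mutation status of the line.

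To show what p53 recognises in this set, the promoter windows were searched for the p53 consensus site, which is a pair of decamers end to end, with up to 3 mismatches over its 20 bases. RefSeq (GRCh38.p14) gave 13 windows for 8 of the genes, each from 250 bases before to 50 bases after a transcription start, and none for GADD45A. Such a site lay in 4 of the 13 windows, of the genes MDM2, SESN1 and GDF15, against 5.2% of all 35116 windows. The 4 include 2 overlapping MDM2 windows that hold the same stretch, and the other windows of MDM2 and SESN1 had no such site. The consensus is its own reverse complement, so both strands were covered. The MDM2 window is shown because it holds 2 sites, with 2 and 3 mismatches, and a second MDM2 window overlaps it and holds the same ones. The SESN1 and GDF15 windows are shown because they hold 1 site each with 3 mismatches, and that of TIGAR because this gene differed most between the treated and control pools and had no such site in its window. Sites are in capitals, and each sequence runs 5′ to 3′ on the strand of the gene.
MDM2, chr12:68808767-68809066, plus strand: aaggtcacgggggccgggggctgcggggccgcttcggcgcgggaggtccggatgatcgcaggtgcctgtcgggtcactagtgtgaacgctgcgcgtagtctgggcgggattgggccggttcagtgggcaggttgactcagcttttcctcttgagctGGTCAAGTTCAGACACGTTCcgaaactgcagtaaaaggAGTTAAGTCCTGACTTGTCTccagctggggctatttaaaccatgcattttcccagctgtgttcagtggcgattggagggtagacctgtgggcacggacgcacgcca
SESN1, chr6:109008939-109009238, minus strand: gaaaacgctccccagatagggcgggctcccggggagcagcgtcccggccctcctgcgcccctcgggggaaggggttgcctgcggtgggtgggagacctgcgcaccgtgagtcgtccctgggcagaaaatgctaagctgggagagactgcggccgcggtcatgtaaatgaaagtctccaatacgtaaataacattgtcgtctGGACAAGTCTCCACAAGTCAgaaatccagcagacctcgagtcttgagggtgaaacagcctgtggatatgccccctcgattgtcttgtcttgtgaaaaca
GDF15, chr19:18385908-18386207, plus strand: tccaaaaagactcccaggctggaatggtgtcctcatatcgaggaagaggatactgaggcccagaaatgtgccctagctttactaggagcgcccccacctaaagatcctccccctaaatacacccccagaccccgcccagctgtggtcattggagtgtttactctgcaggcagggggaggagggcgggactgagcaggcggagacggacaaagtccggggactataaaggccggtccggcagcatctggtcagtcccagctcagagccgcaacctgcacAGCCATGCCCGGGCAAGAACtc
TIGAR, chr12:4320963-4321262, plus strand: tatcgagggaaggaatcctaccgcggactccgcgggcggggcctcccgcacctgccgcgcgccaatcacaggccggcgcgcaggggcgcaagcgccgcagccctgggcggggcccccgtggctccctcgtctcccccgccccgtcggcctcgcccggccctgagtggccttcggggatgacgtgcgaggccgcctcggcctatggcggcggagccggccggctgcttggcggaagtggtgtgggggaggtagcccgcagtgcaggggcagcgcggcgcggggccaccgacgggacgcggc
The MDM2 sites span bases 157 to 176 and 195 to 214 of the window. That of SESN1 spans bases 202 to 221 and that of GDF15 bases 279 to 298. The core of the heat shock element was searched as GAANNTTC or TTCNNGAA, each its own reverse complement, and lay in 1 of the 13 windows, that of TP53I3, against 13.5% of all windows. A match is a description of the letters, and sites farther from the start, such as those known for CDKN1A, lie outside these windows.

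The arrays of a pool lay close together, with a median absolute difference of 0.050 to 0.059 over the 12992 probe sets with a pool at or above 5, against 0.138 to 0.160 between pool means. All 5 heat shock genes used to check the labels, HSPA6, DNAJB1, HSPH1, BAG3 and HSPB1, were higher in the treated pool by 2-fold or more against either of the others. In opposite minus control HSPA6 differed by 0.965, BAG3 by 0.42, HSPB1 by 0.12, DNAJB1 by 0.035 and HSPH1 by -0.08. There another probe set of HSPA6 differed by 0.49 and another of DNAJB1 by 0.32. Of 12 colon epithelium markers 9 were detected, whereas CDX1, CDX2 and CDH17 lay below 5. Of other cell types, 4 of 8 skeletal muscle, 4 of 8 fibroblast and matrix, 1 of 4 measured leukocyte (LYZ) and 1 of 5 endothelial markers (FLT1) were detected. The defining markers PTPRC, CD3E and CSF1R of leukocytes, KDR and CDH5 of endothelium and PDGFRB of fibroblasts had pool means of 2.43 or lower, near the lowest value of the table. The array annotation names human genes and the host is mouse, so these marker levels are no measure of host cell content. Whether the detected ones come from the tumour cells or from host RNA was not tested. The summed linear level of the muscle markers was 250 to 257 on the control arrays, 310 to 321 on the treated and 260.1 to 260.3 on the opposite-side arrays. Of these markers ACTA1 was 2.17 higher in the treated and 1.00 higher in the opposite-side pool than in control, MYL11 was 1.60 and 0.84 higher, and TNNT1 differed by -0.45 and -0.31. ACTA1 stood at 3.10 in the control and 4.11 in the opposite-side pool, both below 5. TNNT1 had the highest level of the list in each pool (7.13 in control), and TNNT3 differed by 0.06 and 0.0. The muscle markers MYH2, CKM, MB and DES had pool means of up to 3.09. The sum of the fibroblast and matrix markers was 369 to 406, 806 to 818 and 678 to 694. Of those detected, TAGLN was 1.66 higher in the treated and 1.04 higher in the opposite-side pool than in control. VIM was 1.14 and 1.26 higher, COL1A1 was 0.67 and 0.50 higher, and FN1 differed by 0.01 and -0.05. TAGLN and VIM met the 2-fold rule given below in both comparisons. The sum of the leukocyte markers was 3054 to 3163, 3619 to 3667 and 3401 to 3491. That of the endothelial markers was 56.0 to 57.4, 55.6 to 55.7 and 52.9 to 53.2. Nearly all of the leukocyte sum was LYZ alone, at log2 levels of 11.59 in the control, 11.82 in the treated and 11.74 in the opposite-side pool. That sum is thus no reading of leukocytes. As a check of RNA integrity, 5′ control probe sets were read beside the 3′ ones of the same gene. For ACTB the 5′ probe set was 1.12 higher in the treated and 1.28 higher in the opposite-side pool than in the control pool. The 3′ probe set of ACTB was 0.23 and 0.15 higher. For GAPDH the 5′ probe set differed by -0.46 and -0.01, and by -0.45 between treated and opposite side. The 3′ probe set of GAPDH differed by -0.03, 0.0005 and -0.03 in these comparisons. Spike-in controls of several kinds were read together, over 40 detected probe sets. The median difference over these probe sets was 0.105 for treated minus control, 0.33 for treated minus opposite and -0.18 for opposite minus control. A shift of each array that made its median over these probe sets equal, called the spike-in scaling here, took 0.014 from every log2 difference in treated minus control, 0.19 in treated minus opposite and -0.175 in opposite minus control. A second scaling, added after the data were seen, subtracted the median differences themselves. The part of any of these in the differences below was not tested. In dissected tissue, fewer cells of a type and less RNA per cell cannot be told apart.

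No p53 target gene of the set differed 2-fold between any pools. A 2-fold call needed a log2 difference of 1 or more between pool means, the same sign in all 4 pairs of arrays, and a level of 5 or more on each array of the higher pool. Of the 9 genes 7 were tested, without BBC3 and BTG2. In treated minus control 0 of the 7 met it, against 0.625% of 7204 genes tested as higher and 0.0972% as lower. In treated minus opposite the count was also 0, against 0.28% and 0.0559% of 7155 genes. In opposite minus control it was 0 as well, against 0.237% and 0.167% of 7182 genes. Limma fitted over the 6 arrays, which sets differences between pools against technical error and says nothing of the conditions, called 4, 3 and 5 of the 7 genes in the 3 comparisons after Benjamini-Hochberg adjustment. It called 45.1%, 39.5% and 45.0% of 7267 genes, so such calls are common in these pools. With the technical replicate number as a block it called 4, 2 and 5 of the 7, against 43.3%, 37.2% and 42.7% of all.

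**Figure D1:**
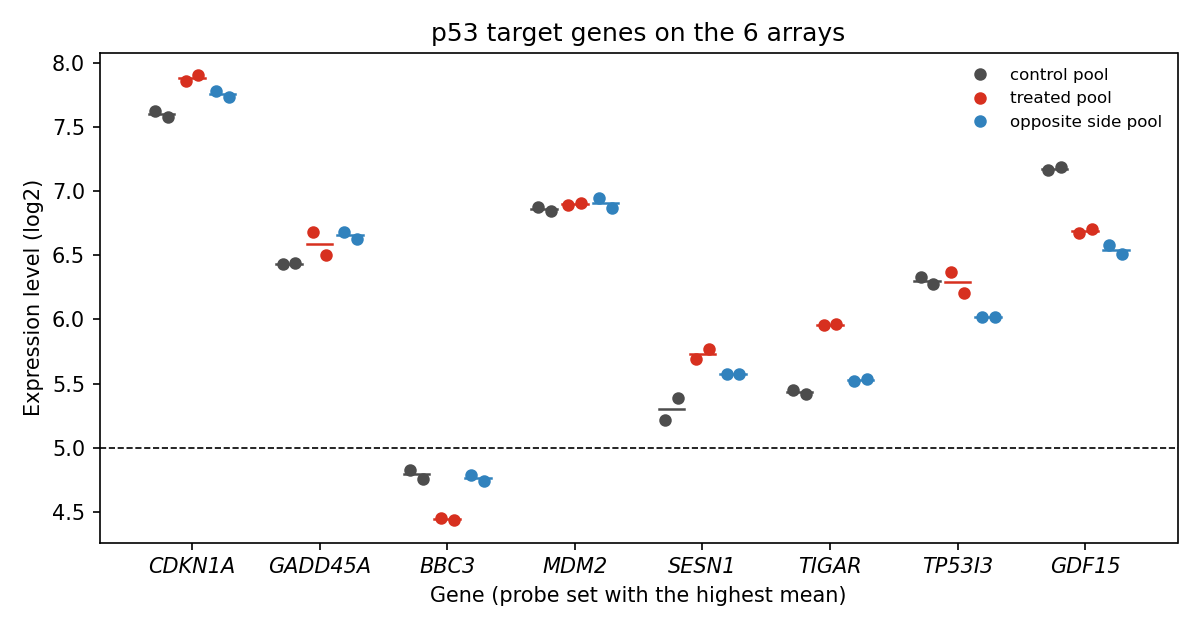
Level (log2) of 8 p53 target genes on each array, by the probe set with the highest mean; points are the 2 technical arrays of a pool, short lines their mean, and the dashed line the level of 5. TIGAR stands highest in the treated pool (5.96), GDF15 is highest in the control pool (7.18), and BBC3 lies below 5 on every array.

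CDKN1A encodes p21, the inhibitor of cyclin-dependent kinases through which p53 stops the cell cycle. Its probe set stood at 7.63 and 7.58 on the control arrays, 7.86 and 7.90 on the treated arrays, and 7.78 and 7.74 on the opposite-side arrays. The pools did not overlap, with the treated pool highest, the control pool lowest and the opposite side between them. The treated pool was higher than control by 0.28 (1.21-fold, array pairs 0.23 to 0.32), a size reached in either direction by 26.7% of the genes tested. The treated pool exceeded the opposite side by 0.12, and the opposite side exceeded control by 0.15. Treated minus opposite became -0.067 with the spike-in scaling, and opposite minus control 0.33. With the second scaling treated minus control was 0.17 and treated minus opposite -0.21.

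GADD45A encodes a small stress protein that acts in growth arrest and DNA repair. It stood at 6.43 and 6.44 on the control arrays, 6.68 and 6.50 on the treated arrays, and 6.68 and 6.63 on the opposite-side arrays. Both pools from the treated animals lay above control, by 0.16 for the treated pool (array pairs 0.06 to 0.25) and by 0.22 for the opposite side (array pairs 0.19 to 0.25). The arrays of the treated and opposite-side pools overlapped, with a difference of -0.06. That difference was -0.25 with the spike-in scaling, and opposite minus control 0.395. Treated minus control was 0.07 without treated array 1, and 0.05 with the second scaling. Of the genes tested, 49.2% differed by at least as much between treated and control.

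BBC3 encodes PUMA, a BH3-only protein that promotes apoptosis. Its 1 probe set also names 2 microRNA genes in the annotation, so the signal cannot be assigned to BBC3 alone, and it was left out of the counts over genes. It stood at 4.83 and 4.76 on the control arrays, 4.46 and 4.43 on the treated arrays, and 4.78 and 4.74 on the opposite-side arrays. The treated arrays were the lowest and did not overlap the others, at -0.35 against control and -0.32 against the opposite side. All 6 values lay below the level of 5 that a call required.

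MDM2 encodes the ubiquitin ligase that marks p53 for degradation and closes the feedback loop. The detected probe set, 229711_s_at, stood at 6.87 and 6.85 on the control arrays, 6.89 and 6.91 on the treated arrays, and 6.95 and 6.87 on the opposite-side arrays. The treated arrays exceeded the control arrays by 0.04 with no overlap, a size that 83.6% of the genes tested reached. The opposite-side arrays overlapped both other pools, with pool differences of -0.01 for treated minus opposite and 0.05 for opposite minus control. The pair of p53 sites printed above lies in a start-site window of this gene, while other windows of it hold none. As deposited, the detected probe set differed by at most 0.051 between any pools. It differed with the spike-in scaling by -0.20 in treated minus opposite and 0.23 in opposite minus control, and with the second scaling by -0.064 in treated minus control.

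The other MDM2 probe sets gave little signal. The next, 225160_x_at, stood at 4.74 and 4.74 on the control arrays, 4.67 and 4.96 on the treated arrays, and 4.80 and 4.77 on the opposite-side arrays, so that its treated arrays spanned the others. The remaining 8 probe sets, among them 205386_s_at, lay at 2.82 or lower on every array, near the lowest value of the table, 2.37. The MDM2 values thus rest on 1 of 10 probe sets, of the kind (_s_at) whose probes can match several transcripts.

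**Figure D2:**
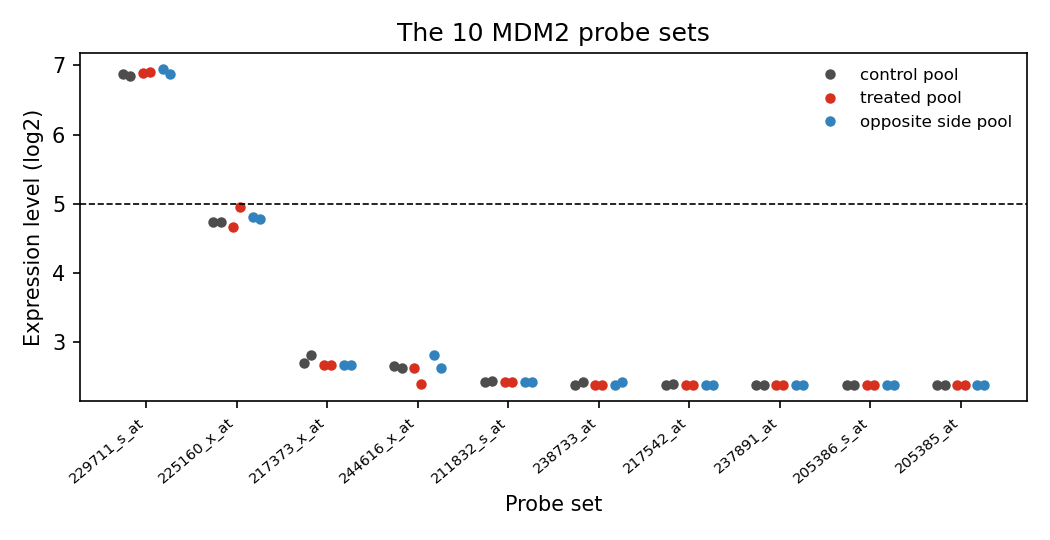
Level (log2) of each of the 10 MDM2 probe sets on the 6 arrays; each point is 1 array, coloured by pool, and the dashed line is the level of 5. Only 229711_s_at lies above the line, and 8 probe sets lie at 2.82 or lower in every pool.

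TIGAR encodes a fructose bisphosphatase that diverts glucose from glycolysis towards the pentose phosphate pathway and so supports the defence against oxidants. It stood at 5.45 and 5.42 on the control arrays, 5.96 and 5.96 on the treated arrays, and 5.52 and 5.54 on the opposite-side arrays. The treated arrays lay above the other 4 with no overlap, while the control and opposite-side arrays lay close together. TIGAR was higher in the treated pool by 0.52 against control (1.44-fold, array pairs 0.51 to 0.54) and by 0.43 against the opposite side (1.35-fold). A difference of that size was reached by 6.19% of the genes tested against control and 7.99% against the opposite side. The opposite side exceeded control by 0.09. With the spike-in scaling the treated minus opposite difference was 0.24 and the opposite minus control difference 0.27.

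SESN1 encodes sestrin 1, which restrains the growth kinase mTORC1 and limits oxidants. It stood at 5.21 and 5.39 on the control arrays, 5.69 and 5.77 on the treated arrays, and 5.58 on each opposite-side array. The order of the pools was that of CDKN1A, treated above opposite side above control, with no overlap. The treated pool was higher than control by 0.43 (1.35-fold, array pairs 0.30 to 0.56), and 10.6% of the genes tested differed by as much. The treated pool exceeded the opposite side by 0.15, which became -0.035 with the spike-in scaling. The opposite side exceeded control by 0.28, and by 0.45 with that scaling.

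TP53I3 encodes a quinone oxidoreductase linked to the production of oxidants in p53-dependent death. It stood at 6.33 and 6.27 on the control arrays, 6.37 and 6.21 on the treated arrays, and 6.02 on each opposite-side array. The treated arrays spanned the control arrays, with a difference of -0.01, and the opposite side was lowest. The opposite-side pool was below control by 0.28 and below the treated pool by 0.27, and 22.1% of the genes tested differed by at least as much between treated and opposite side. Those differences were 0.11 and 0.08 in size with the spike-in scaling, in the same directions, and with the second scaling treated minus opposite was -0.063.

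GDF15 encodes a secreted cytokine of the TGF-beta family that many stresses induce. Its detected probe set, 221577_x_at, stood at 7.16 and 7.19 on the control arrays, 6.67 and 6.70 on the treated arrays, and 6.58 and 6.51 on the opposite-side arrays. Both pools from treated animals were well below control and did not overlap it. The treated pool differed from control by -0.49 (a 1.40-fold lower level, array pairs -0.52 to -0.46) and the opposite side by -0.63 (1.55-fold lower). These sizes were reached in either direction by 7.4% and 3.06% of the genes tested. The treated pool exceeded the opposite side by 0.14, and this became -0.046 with the spike-in scaling. The other GDF15 probe sets stood at 2.60 and 2.38 on all 6 arrays, so the GDF15 values rest on 1 probe set of the _x_at kind, whose probes can also match other genes.

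**Figure D3:**
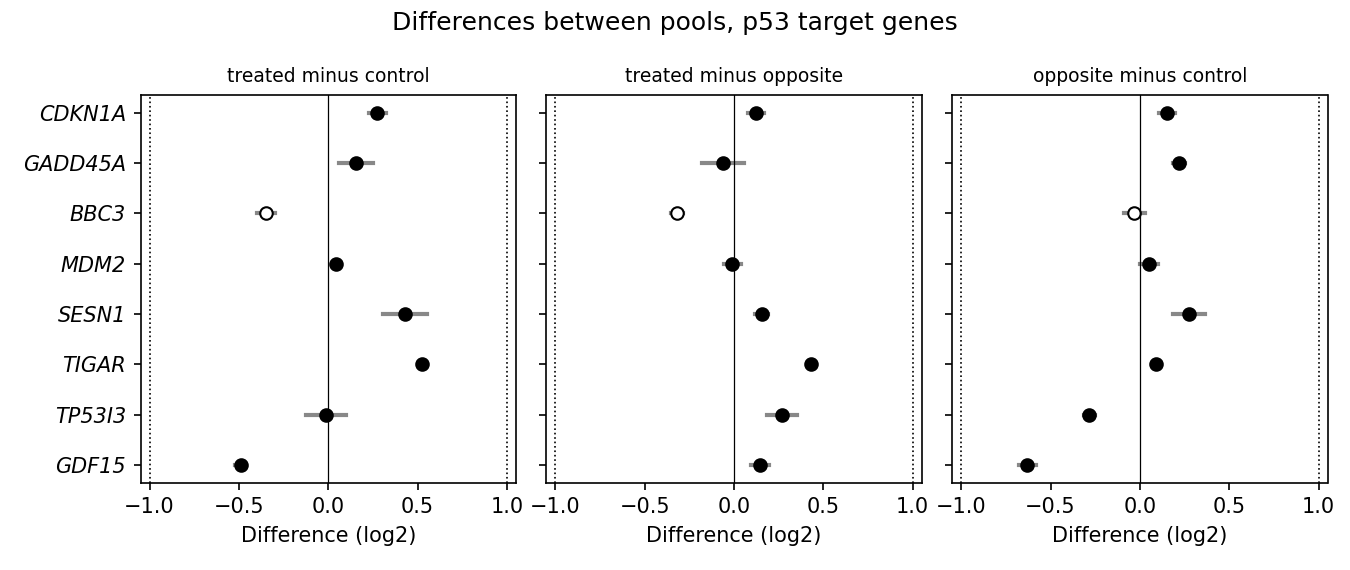
Differences between pool means (log2) for 8 p53 target genes in each comparison; the circles are pool differences, grey bars the range of the 4 array-to-array differences, dotted lines the 2-fold limits, and the open circle BBC3, which lay below 5. Every difference lies inside the dotted lines, and the largest in size is that of GDF15 in opposite minus control (-0.63).

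Read by comparison, the set moved in both directions against the control pool. A gene was called separated where all 4 pairs of arrays gave the same sign and each array of the higher pool reached 5. In treated minus control 5 of the 7 genes tested were separated as higher (CDKN1A, GADD45A, MDM2, SESN1 and TIGAR) and 1 as lower (GDF15). Of all 7204 genes tested, 34.4% were separated as higher and 40.1% as lower, so separation alone is common. The median difference of the 7 detected genes was 0.16, beside -0.02 for all genes tested.

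In treated minus opposite 5 of the 7 genes were separated as higher (CDKN1A, GDF15, SESN1, TIGAR and TP53I3) and 0 as lower, where 38.3% and 32.9% of all genes tested were. The median of the 7 detected genes was 0.14, beside 0.01 for all genes tested. The spike-in scaling shifts all genes alike. With it 1 of the 7 genes (TIGAR) was higher and 4 were lower, beside 12.8% and 68.3% of all genes tested, and the median of the 7 was -0.046, beside -0.18 for all genes tested.

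In opposite minus control 4 of the 7 genes were separated as higher (CDKN1A, GADD45A, SESN1 and TIGAR) and 2 as lower (GDF15 and TP53I3), against 33.7% and 42.0% of all genes tested. The median of the 7 detected genes was 0.09, beside -0.02 for all genes tested. With the spike-in scaling 5 genes were higher and 2 lower, beside 65.0% and 17.2% of all genes tested, and the median of the 7 was 0.27, beside 0.16. The comparisons share pools, so their values are not independent of each other.

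The wider p53 programme was read from 40 other p53 target genes, of which 28 were tested in treated minus control. None passed the 2-fold rule, 12 (42.9%) were separated as higher and 9 (32.1%) as lower, against 34.4% and 40.1% of all genes tested, and their median difference was 0.04, beside -0.02 for all genes tested. The 4 largest differences were all positive. SAT1, which breaks down polyamines, stood at 8.41 and 8.43 on the control arrays, 9.14 and 9.08 on the treated arrays and 9.06 and 9.07 on the opposite-side arrays. By this probe set it was higher in both pools of the treated animals, by 0.69 and 0.64. Its other detected probe sets differed by 0.47 and 0.37 in treated minus control and by 0.56 and 0.09 in opposite minus control. PLK2, a polo-like kinase, was higher in the treated pool by 0.48 and on the opposite side by 0.44. PERP, a membrane protein of desmosomes and of p53-dependent death, was higher by 0.44 and 0.32. Its other detected probe set was higher by 0.67 and 0.66, with 0.01 in treated minus opposite. SFN, the 14-3-3 protein stratifin that restrains entry into mitosis, was higher in the treated pool by 0.28 and lower on the opposite side by 0.31. Its other detected probe sets differed by 0.23 and 0.07 in treated minus control and by -0.017 and -0.075 in opposite minus control.

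In treated minus opposite, 29 of the 40 genes were tested, 12 (41.4%) were separated as higher and 6 (20.7%) as lower, against 38.3% and 32.9% of all genes tested, and their median was 0.04, beside 0.01 for all genes. In opposite minus control 6 (20.7%) were higher and 14 (48.3%) lower, against 33.7% and 42.0%, with a median of -0.02, beside -0.02 for all genes. With the spike-in scaling 4 (13.8%) were higher and 20 (69.0%) lower in treated minus opposite, beside 12.8% and 68.3% of all genes tested. In opposite minus control 21 (72.4%) were higher and 1 (3.45%) lower, beside 65.0% and 17.2%. FDXR, of the same list, was not analysed here.

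**Figure D4:**
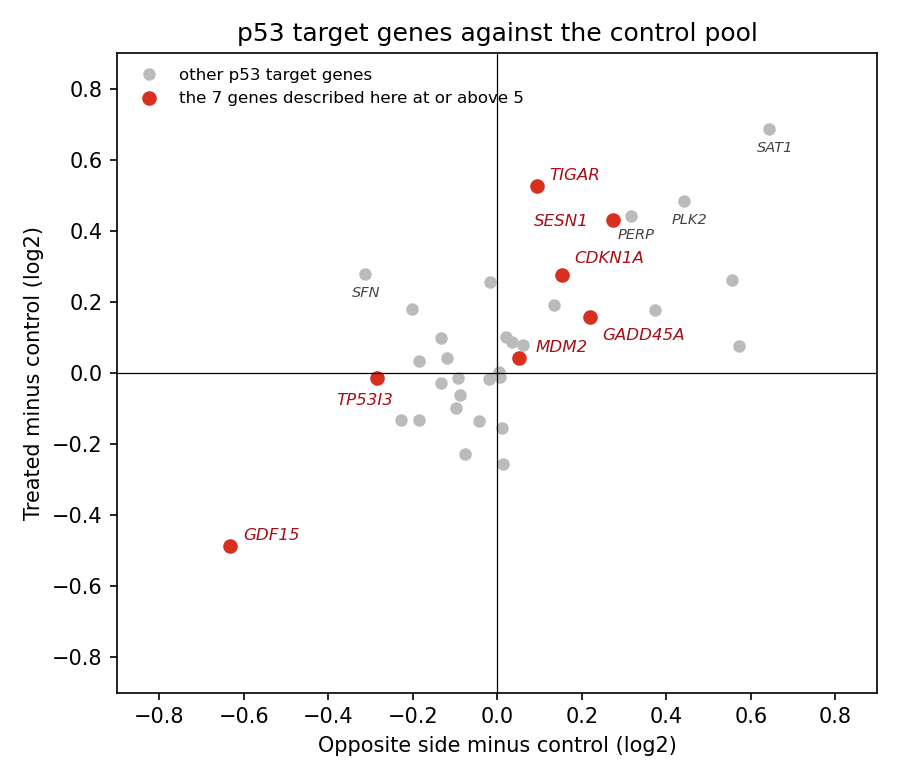
Treated minus control against opposite side minus control (log2) for the 7 detected p53 target genes of the set (red) and the other p53 target genes (grey). Both axes subtract the same control pool; TIGAR lies near 0 on the horizontal axis (0.09) and at 0.52 on the vertical one, GDF15 is below 0 on both, and SAT1 is farthest in the positive direction.

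Regulators and relatives of p53 were 25 genes, of which 18 were tested. Against control, 4 (22.2%) were separated as higher and 4 as lower in the treated pool, beside 34.4% and 40.1% of all genes tested, with a median of 0.03, beside -0.02 for all genes. The largest differences were -0.22 for WRAP53, whose product acts in telomerase assembly, -0.18 for PPP1R13B and 0.17 for PPP1R13L, which encode p53-binding proteins of the ASPP family, and -0.17 for the ribosomal protein gene RPL11, whose product binds MDM2. In opposite minus control 2 (11.1%) were higher and 10 (55.6%) lower, beside 33.7% and 42.0% of all genes tested, with a median of -0.14 beside -0.02. Between treated and opposite side 9 were higher and 3 (16.7%) lower, beside 38.3% and 32.9%, with a median of 0.10 beside 0.01. With the spike-in scaling 9 were higher and 3 lower in opposite minus control, beside 65.0% and 17.2% of all genes tested, with a median of 0.03 beside 0.16, and 3 were higher and 9 lower in treated minus opposite, beside 12.8% and 68.3%, with a median of -0.09 beside -0.18.

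Paralogues of the set, and for BBC3 other genes of BH3-only proteins, were read to see whether related genes differed alike. Some of them also stand in the lists above, so the lists overlap. Of 22 listed genes 9 were tested, and in treated minus control 4 (44.4%) were separated as higher and 3 (33.3%) as lower, beside 34.4% and 40.1% of all genes tested, with a median of 0.02, beside -0.02 for all genes. BTG1, an antiproliferative relative of BTG2, was higher in the treated pool by 0.34, yet its other detected probe set differed by -0.41. BIK, which like BBC3 encodes a BH3-only protein, was higher by 0.30 in the treated pool and by 0.73 on the opposite side. CDKN1B, which encodes the p21 relative p27, was lower by 0.20 in the treated pool and higher by 0.21 on the opposite side. TOB2, of the BTG family, was higher by 0.18. Between treated and opposite side 3 (33.3%) were higher and 3 lower, beside 38.3% and 32.9%, and in opposite minus control 4 (44.4%) were higher and 4 lower, beside 33.7% and 42.0%. With the spike-in scaling 2 (22.2%) were higher and 7 (77.8%) lower in treated minus opposite, beside 12.8% and 68.3%, and 7 (77.8%) were higher and 1 (11.1%) lower in opposite minus control, beside 65.0% and 17.2%.

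The genes most like TIGAR across the 6 arrays were found by the Euclidean distance of levels centred on their mean, among 7266 other detected genes. The nearest were CENATAC (distance 0.05), the mitochondrial chaperonin gene HSPD1 (0.08), the calcineurin subunit gene PPP3CA (0.08), the zinc transporter gene SLC39A14 (0.08) and SUCLA2 (0.08), which encodes a subunit of succinyl-CoA synthetase. Their treated minus control differences ran from 0.45 to 0.60 and their opposite minus control differences from 0.08 to 0.16. The genes were picked by these same levels, so differences near those of TIGAR follow from the choice.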

How the data were processed

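The deposited values are log2 expression levels per probe set, and GCRMA (background correction, quantile normalization and probe summary) comes from the submitters' processing notes, without a version. The array annotation and a RefSeq table of current symbols (GRCh38.p14) named 1 gene for 41097 of 54675 probe sets, several for 1801 and none for 11777, and 41043 matched by Entrez identifier. Of several probe sets for a gene, the one with the highest mean stood for it. With 1 pool a group, differences of pool means were described by the 2-fold and separated rules. A gene was tested where either pool mean reached 5. Named genes were all of the set and, from each other list, up to 4 tested genes with the largest treated minus control difference. Genes that check labels, RNA and tissue were named beside them, as were the 5 genes nearest to TIGAR. The genes of the set and the lists were chosen with earlier results of these data known. Both rules and limma were run on simulated data. For the separated rule that run checked only that added differences were found. With so few arrays, array error alone can separate pools, so separated counts are given beside the share of all genes. Alternatives were other minimum levels and differences, other scalings, linear averaging, other probe sets, a second spike-in scaling chosen after seeing the data, leaving out each array, and limma without a block and with the replicate number of the array as one. Arrays have no depth, and their number limits the precision. Work was done in R 4.3.3 with limma 3.58.1 and in Python 3.11.15 with pandas 2.3.3, numpy 2.4.6 and matplotlib 3.10.9.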

Additional observations from a re-analysis of the deposited data

How the results depend on the processing

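The 2-fold count stayed at 0 in all 3 comparisons under the other minimum levels, scalings and probe sets, without agreement of array pairs and without each array, and a minimum difference of 0.58 (1.5-fold) added 1 gene, GDF15, in opposite minus control. Limma called 4, 3 and 5 genes (treated minus control, treated minus opposite, opposite minus control), and 4, 2 and 5 with the replicate block, which lost GDF15. Same-numbered arrays did not deviate together (correlations 0.0058 to 0.0237), so the numbers do not pair the arrays. The separated counts of 6, 5 and 6 became 2, 1 and 2 without _x_at and _s_at probe sets, where CDKN1A, SESN1 and TP53I3 have none left. There MDM2, at 2.40 in the control pool, differed by -0.026 in treated minus control, the reverse of the value reported. A minimum level of 6 left 3 genes in treated minus opposite, since SESN1 and TIGAR lie below it. Without 1 array the counts were 6 to 7, 5 to 7 and 6 to 7. Fewer pairs of arrays have to agree there, so these counts can rise but cannot fall. TP53I3 in treated minus control differed by -0.10 without treated array 1 and by 0.07 without array 2, and MDM2 in treated minus opposite by 0.03 or -0.05 without either opposite-side array. GADD45A in treated minus control differed by 0.07 without treated array 1 and by 0.25 without array 2. In treated minus opposite it was separated as lower without treated array 1 (-0.15) or opposite-side array 2 (-0.09), and MDM2 in opposite minus control as higher without opposite-side array 2 (0.09) or control array 1 (0.06). The spike-in scaling turned treated minus opposite to -0.067 for CDKN1A, -0.046 for GDF15 and -0.035 for SESN1; the other planned scalings turned no separated difference. Subtracting the median spike-in difference, chosen after seeing the data, gave -0.064 for MDM2 in treated minus control, and in treated minus opposite -0.2095 for CDKN1A, -0.189 for GDF15, -0.1775 for SESN1 and -0.063 for TP53I3, each the reverse of the value reported, while TIGAR was at 0.0995. Pools of unstated size bear on all values, and levels near 2.37 show no difference.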

Other observations

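The kinases, cyclins and other partners through which p21 acts were mostly higher in the treated pool than in control, as was CDKN1A. Of 14 listed genes 11 were tested, and in treated minus control 9 were separated as higher and 0 as lower, against 34.4% and 40.1% of all genes tested, with a median of 0.19 beside -0.02. CDK6, a kinase of the G1 phase, stood at 7.69 and 7.65 on the control arrays, 8.20 and 8.22 on the treated arrays, and 7.58 and 7.51 on the opposite-side arrays, a difference of 0.54 from control. Its other detected probe sets differed by 0.27 and 0.57. CCND1, cyclin D1, was higher by 0.49, with 0.49 on its other probe set. RB1, the retinoblastoma protein that these kinases inactivate, was higher by 0.38, and PCNA, the DNA polymerase clamp that p21 binds, by 0.35. In treated minus opposite 8 were separated as higher and 2 as lower, beside 38.3% and 32.9% of all genes tested, and 6 and 4 with the spike-in scaling, beside 12.8% and 68.3%. In opposite minus control 3 were higher and 5 lower, beside 33.7% and 42.0%, and with that scaling 7 higher and 0 lower, beside 65.0% and 17.2%.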
